A study of Mus musculus with 12 samples.

Results

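Spp1, which encodes the secreted phosphoprotein osteopontin, and Clu, which encodes the secreted chaperone clusterin, were followed through 4 sorted cell groups of the injured mouse liver. These 2 genes were taken by symbol from a table of 53599 genes, and both were among the 16210 genes that passed the filter on low counts. They were chosen for their very high levels and for the timing of their change in these same libraries. Their levels and fold changes are therefore a description and carry no test, and tests are given only for other genes.

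Osteopontin is a secreted glycoprotein of the extracellular matrix. It binds integrins, several of them through an RGD motif, and is also bound by the hyaluronan receptor Cd44. In the liver it is known as a product of bile duct epithelium, and it is also made by activated macrophages and stellate cells in fibrosis. Clusterin, also called apolipoprotein J, is made as a precursor, is cleaved into chains joined by disulphide bonds, and holds misfolded proteins in solution outside the cell. It also binds the terminal complement complex and keeps it from inserting into membranes, and hepatocytes secrete it into plasma.

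Bulk RNA was sequenced from 12 libraries, 3 in each of 4 groups, from livers of mice with the genotype label WT. All mice had been injected with AAV8-TBG-Cre, an adeno-associated virus in which the TBG promoter drives Cre recombinase in hepatocytes. From 1 week later they ate a diet with 0.1% DDC (3,5-diethoxycarbonyl-1,4-dihydrocollidine), a compound that injures bile ducts, for 8 weeks. Cells were then separated by flow cytometry. The early group was EGFP+ Cd24- Epcam-, the intermediate group EGFP+ Cd24+ Epcam- and the full group EGFP+ Cd24+ Epcam+. BEC, the biliary epithelial cells, were EGFP- Epcam+. EGFP is read here as the mark of cells in which Cre had acted, that is hepatocytes and their descendants. The labels name no reporter allele and do not say whether libraries with the same replicate number came from 1 mouse. All 4 groups share the virus and the DDC diet, so no group here shows the level of either gene in uninjured liver. The labels also do not say that replicates came from separate animals, so p-values measure only the spread between these samples.

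Libraries held 15112893 to 19731887 counts. Levels are given as counts per 1000000 (CPM) after TMM scaling, which assumes that most genes differ little between libraries. With TMM, 28.7% of all genes tested were called higher and 25.7% lower in intermediate than in early (edgeR adjusted p under 0.05). The assumption may therefore not hold for the early group. Mitochondrial transcripts took 5.45% to 11.4% of counts in early libraries and 2.20% to 4.75% in the others. The summed level of 10 hepatocyte markers lay between 97453 and 101380 CPM in early libraries, 15151 and 19618 in intermediate, 3325 and 4361 in full, and 2022 and 2669 in BEC. The summed level of 10 biliary markers went the other way, from 94.7 to 121 CPM in early libraries, through 588 to 656 and 1433 to 1707, to 3632.5 to 3697 in BEC. The hepatocyte level thus fell and the biliary level rose along the groups. BEC carried Krt19 at 593 CPM and Epcam, on which they were sorted, at 866. Alb stood at 73507 CPM in early and at 1653 in BEC, where it was still above both. In bulk samples, fewer cells of a type and less RNA per cell cannot be told apart.

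The region upstream of Spp1 is shown because several factors whose genes are described below have short binding motifs that can be looked for in it. The RefSeq promoter table (GRCm38.p6) matched 1 of the 2 genes. The 250 bases before its first listed Spp1 start site lie at chr5:104434861-104435110 on the plus strand, and capitals mark the letters that matched a motif on either strand.
Spp1 promoter: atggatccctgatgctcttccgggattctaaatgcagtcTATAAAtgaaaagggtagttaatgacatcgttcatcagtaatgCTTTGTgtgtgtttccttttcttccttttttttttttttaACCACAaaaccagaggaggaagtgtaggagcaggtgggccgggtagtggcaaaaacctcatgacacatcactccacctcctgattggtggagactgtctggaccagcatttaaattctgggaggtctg
The letters TATAAA, searched for as the TATA box motif, lay on the plus strand from -211 to -206 relative to the start site. This match is not read as the TATA box of that start site, and 13.6% of the 32851 promoters in the table hold that motif. The SOX motif ACAAAG lay on the minus strand from -168 to -163, and 18.7% of promoters hold it. The RUNX motif TGTGGT lay on the minus strand from -128 to -123, and 16.8% hold it. The AP-1 motif TGANTCA (7.81% of promoters), the RBPJ motif TGGGAA (25.6%), the TEAD motif GGAATG (14.7%) and the heat shock element core (7.86%) had no match in this window. These motifs did not overlap each other here, and each match is a run of letters, not a measured binding site. The table lists a second Spp1 start site, and of the 7 motifs its upstream window held only the SOX motif, on the minus strand from -243 to -238.

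Spp1 was already high in the intermediate group and, with TMM scaling, changed little after it. In early libraries 1, 2 and 3 it stood at 868, 1032 and 1811 CPM, a mean of 1237 ± 504 (SD, n = 3). In the intermediate libraries it stood at 11535, 8553 and 9509.8 CPM, a mean of 9866 ± 1523 (SD, n = 3). The lowest intermediate library was thus well above the highest early one, and the 2 groups did not overlap. Full libraries had 13336, 9929 and 10682 CPM (11316 ± 1790, SD, n = 3). BEC had 14481, 11063 and 10889 CPM (12144 ± 2026, SD, n = 3). The intermediate, full and BEC values overlapped, and the means of neighbouring groups differed by less than the SD within a group. Between libraries of the same replicate number, Spp1 was higher in full than in intermediate in 3 of 3 pairs, by 0.21, 0.22 and 0.17 on the log2 scale. With total counts these differences were larger, at 0.39, 0.43 and 0.38. From full to BEC Spp1 was higher in 3 of 3 pairs, by 0.12, 0.16 and 0.03 with TMM and 0.13, 0.14 and 0.04 with total counts. These differences are a description like the levels. The log2 fold change was 3.00 (SE 0.26, 7.97-fold) from early to intermediate, 0.20 (SE 0.24) from intermediate to full and 0.10 (SE 0.24) from full to BEC. Leaving out 1 library moved the change from intermediate to full to between 0.06 (without full replicate 1) and 0.32 (without intermediate replicate 1). The change from full to BEC moved to between -0.05 (without BEC replicate 1) and 0.24 (without full replicate 1). BEC stood 9.81-fold above early. For reference, edgeR called 28.7% of all genes tested higher in intermediate than in early at an adjusted p under 0.05. Since Spp1 was chosen on this contrast, nothing is read from that share.

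The spread of Spp1 was widest in the early group, where the SD was 40.7% of the mean against 15.4% to 16.7% in the other groups. Early library 3 was the high one. Spp1 held 0.0566%, 0.0676% and 0.122% of all counts in early libraries 1, 2 and 3, and 1.73%, 1.34% and 1.31% in BEC. Its counts ran from 10978 to 313450 per library, and the 95% Wilson interval of a share extended at most 1.87% of that share to either side, counting error only. The spread between libraries was larger.

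Clu had a much higher early level than Spp1, a smaller fold difference after it, and about the same level in the intermediate, full and BEC groups. Early libraries had 9321, 7991 and 7445 CPM (8252 ± 965, SD, n = 3). Intermediate libraries had 29310.3, 23883 and 23015 CPM (mean 25403, SD 13.4% of the mean, n = 3). Every intermediate library lay above every early one. Full libraries had 28799, 22412.5 and 24016 CPM (25076 ± 3323, SD, n = 3). BEC had 26572, 22519 and 20602.5 CPM (23231 ± 3048, SD, n = 3). The 3 later groups overlapped, and their means differed by less than 1 SD. Between same-numbered libraries, Clu was higher in full than in intermediate in 1 of 3 pairs with TMM and in 3 of 3 with total counts. It was higher in BEC than in full in 1 of 3 pairs with TMM (-0.12, 0.01 and -0.22) and in 0 of 3 with total counts. The log2 fold change was 1.62 (SE 0.17, 3.08-fold) from early to intermediate, -0.02 (SE 0.16) from intermediate to full and -0.11 (SE 0.16) from full to BEC. The change from intermediate to full turned to 0.10 without intermediate replicate 1, 0.06 without full replicate 2 and 0.01 without full replicate 3. On the share of raw counts, Clu took at most 0.607% of an early library, 2.37% to 3.09% of intermediate, 2.73% to 3.43% of full and 2.48% to 3.18% of BEC. Spp1 and Clu together held at most 0.664% of an early library and up to 5.02% of a full one.

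The scaling set the size of these changes. With total counts in place of TMM, the early-to-intermediate log2 change was 3.65 (12.6-fold) for Spp1 and 2.29 (4.89-fold) for Clu. That scaling also moved the median over all genes tested from 0.06 to 0.72 in this comparison, and from 0.01 to 0.21 between intermediate and full. Of the genes called, 52.8% were higher in intermediate than in early with TMM and 85.6% with total counts, and 51.2% and 72.6% were higher in full than in intermediate. The Clu change from intermediate to full was -0.02 with TMM and 0.18 with total counts, and from intermediate to BEC -0.13 and 0.07, so its direction there depended on the scaling.

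**Figure D1:**
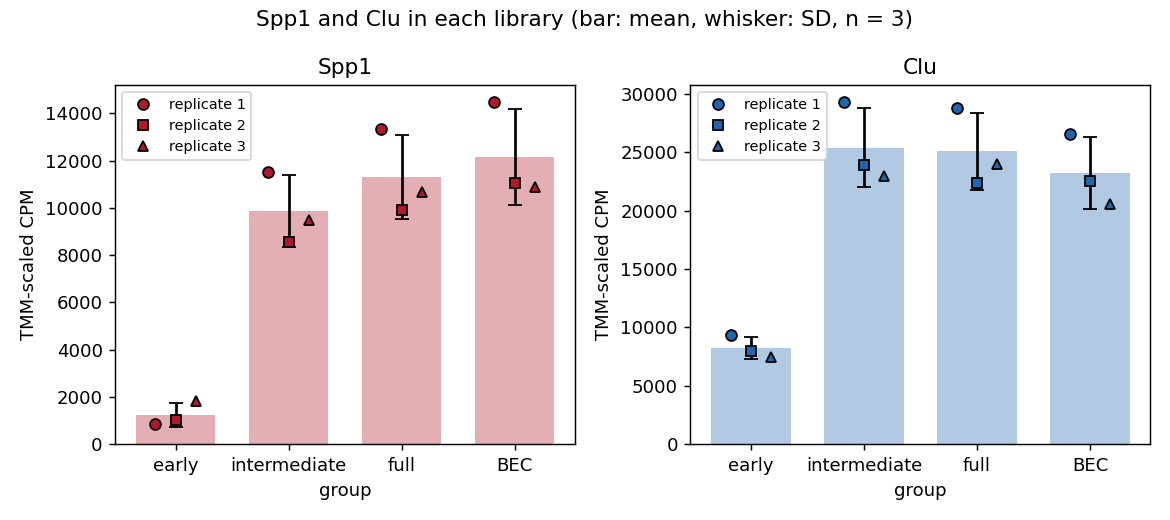
Level of Spp1 and Clu in each of the 12 libraries, in TMM-scaled CPM, by group. Points are libraries, bars are group means and whiskers are the SD over 3 libraries. The early points (868 to 1811 CPM for Spp1, 7445 to 9321 for Clu) lie below all others, and the points of the 3 later groups overlap.

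Other cells that make osteopontin could be present in a sort, so their markers stand beside these levels. The summed level of 11 macrophage markers was 53.3 to 82.3 CPM in early, 54.5 to 66.3 in intermediate, 73.5 to 103 in full and 134 to 166 in BEC, and none of the 11 was at 0 in all libraries of a group. The sum was led by Csf1r in BEC, at 127 CPM, and Csf1r stood at 3.94, 24.6 and 67.8 CPM in the groups before it, so it was higher in each group than in the one before. Gpnmb went down, at 38.3, 21.9, 5.16 and 0.929 CPM, and Cd68 stood at 14.0, 2.74, 1.62 and 3.46 CPM. The group means of Adgre1 and of the Kupffer cell marker Clec4f were at most 0.522 and 3.69 CPM. The 10 stellate cell and fibroblast markers summed to 104 to 279 CPM in early, 1794.5 to 2499 in intermediate, 2973 to 3448 in full and 1689 to 2261 in BEC, again with none at 0 throughout a group. In the 3 later groups that sum was led by Rgs5, at 1970.3, 3185 and 1918.5 CPM. In early Rgs5 stood at 41.0 CPM, and Col3a1 led at 61.1. Col1a1 stood at 40.9, 19.7, 16.7 and 19.4 CPM in the 4 groups. Lymphoid and neutrophil markers summed to at most 0.326 and 0.637 CPM and endothelial ones to between 3.13 and 24.2. The part of such cells in the Spp1 and Clu levels was not tested.

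Timing was expressed as the part of the log2 change from early to BEC that a group had already reached, where 1 is the BEC level. Intermediate libraries had reached 0.982, 0.853 and 0.899 for Spp1, a mean of 0.911 ± 0.065 (SD, n = 3), and a mean of 1.086 ± 0.126 (SD, n = 3) for Clu. The median over 4362 genes that were higher in BEC than in early by at least 1 on the log2 scale was 0.517 ± 0.035 (SD, n = 3). Of those genes, 89.1% had a lower part than Spp1 and 95.1% a lower part than Clu. In the full group the parts were 0.970 ± 0.066 for Spp1 and 1.074 ± 0.125 for Clu, against a median of 0.886 ± 0.015 (SD, n = 3), and 65.2% of those genes had a lower part than Spp1 and 80.5% a lower part than Clu. With total counts the intermediate parts were 0.881 for Spp1 and 0.969 for Clu. Since both genes were chosen for their timing in these libraries, nothing is read from their place among those genes.

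Levels of different genes were compared per kilobase of the longest annotated transcript (GENCODE M21), which is 1507 bases for Spp1 and 1810 bases for Clu. Spp1 lies on chromosome 5 and Clu on chromosome 14, both on the plus strand. Ranks were taken over 15844 genes with a length. By CPM per kilobase, Clu ranked 1 in all 9 intermediate, full and BEC libraries, and between 20 and 23 in early libraries. Spp1 ranked 2 in all full and BEC libraries, 3 to 6 in intermediate libraries and 58 to 139 in early ones. In BEC, Clu stood at 12835 ± 1684 CPM per kilobase and Spp1 at 8059 ± 1344 (SD, n = 3 for each). The next genes there were the mitochondrial transcripts mt-Co1 at 7112 ± 1073 and mt-Cytb at 3399.8 ± 423 CPM per kilobase, then mt-Nd1 at 2265 ± 385. In the intermediate group mt-Co1 was next to Clu at 11485 ± 1266, followed by Spp1 at 6547 ± 1010 and by Apoe, a lipoprotein gene, at 6231 ± 640.1.

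The order of the 2 members depended on the length used. With the union of all exons, 1648 bases for Spp1 and 3437 for Clu, Spp1 ranked 1 in BEC and Clu ranked 2 or 3. The per-kilobase ratio of Clu to Spp1 fell along the groups. It was 8.94, 6.44 and 3.42 in early libraries 1, 2 and 3, 2.12, 2.33 and 2.02 in intermediate, 1.80, 1.88 and 1.87 in full, and 1.53, 1.70 and 1.58 in BEC. Each group's values lay below those of the group before it, and early library 3 was again the library nearest the later groups. With exon-union lengths the BEC ratio was 0.880, 0.976 and 0.907. The annotation (GRCm38) places the predicted gene Gm42793 over 309 exon bases of Spp1 on the same strand, with 8 to 18 counts in early libraries and 1676 to 2202 in BEC. How reads shared by the 2 genes were counted is not given in the sources used here. The Gm42793 counts were at most 0.924% of the Spp1 count in the same library.

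**Figure D2:**
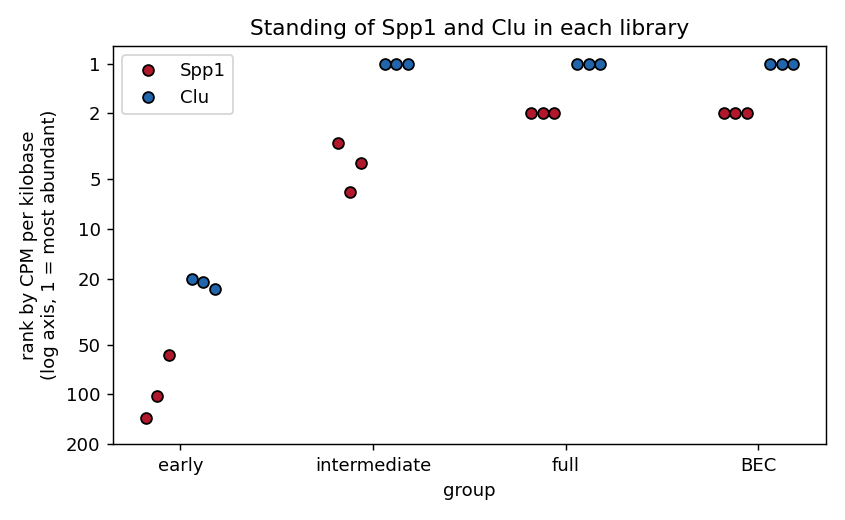
Rank of Spp1 and Clu by CPM per kilobase among 15844 genes in each library (log axis, 1 is the most abundant). Clu sits at rank 1 in all 9 later libraries and Spp1 between 2 and 6, while early libraries hold Clu at 20 to 23 and Spp1 at 58 to 139.

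Within groups, replicate 1 was the highest of its group for Clu in 4 of 4 groups and for Spp1 in 3 of 4. In the early group replicate 3 was highest for Spp1.

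The genes whose pattern came closest to each member were found among 4566 genes with a mean of at least 50 CPM. Likeness was the root mean square difference in log2 CPM over 12 libraries, after each gene's mean was subtracted. The 5 nearest to Spp1 were Bicc1, an RNA-binding protein, at 0.285 (94.0, 668, 863 and 788 CPM in early, intermediate, full and BEC), then Smo, the Hedgehog signal transducer, at 0.316, Agrn, the matrix protein agrin, at 0.317, Slc5a1, a sodium-glucose transporter, at 0.338 and Sox9, a biliary transcription factor, at 0.341. The 5 nearest to Clu were Tes at 0.116 (39.9, 112, 112 and 117 CPM), the histone demethylase Kdm1a at 0.162, Phldb2 at 0.172, the kinase Pak1 at 0.181 and the adaptor Nck2 at 0.185. All 10 were lowest in early, as the members were, which follows from their choice by likeness to the members. Spp1 and Clu were not close to each other by this measure: they differed by 0.788, which put Clu at position 198 for Spp1 and Spp1 at position 2153 for Clu.

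**Figure D3:**
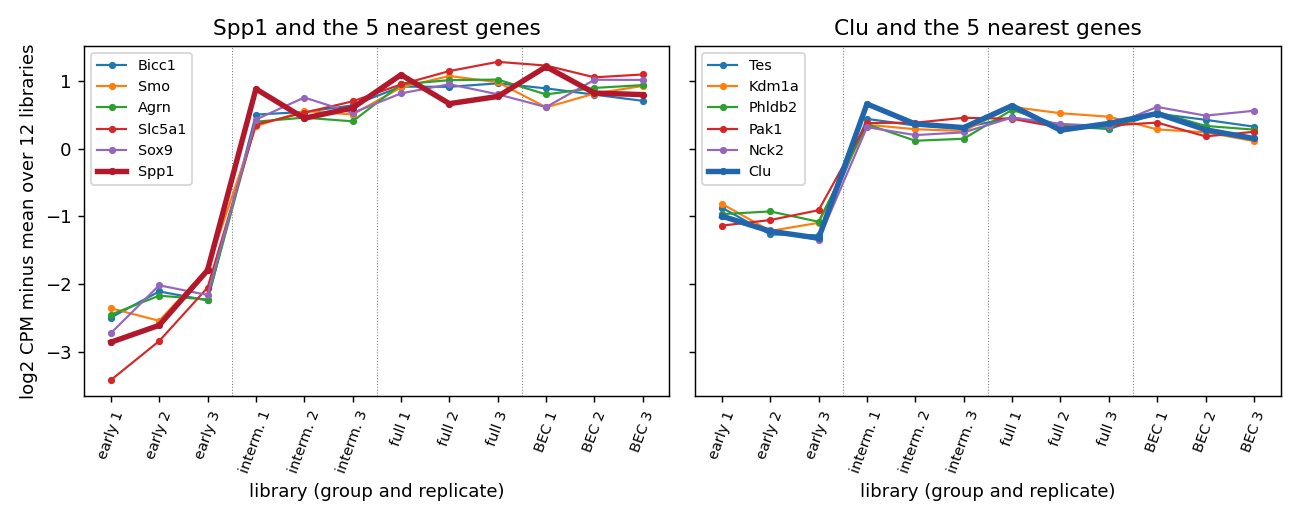
Log2 CPM minus the mean over 12 libraries, for Spp1 and Clu (thick lines) and the 5 genes nearest to each, one point per library. Lines only join the points of a gene. All genes shown step up between the early and the intermediate libraries, which follows from their choice by likeness to the members.

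Binding partners, processing enzymes and candidate regulators were taken from 7 lists with 55 genes, of which 54 were in the table and 43 passed the filter. Clul1 was not analysed here. They were tested with edgeR's quasi-likelihood test, adjusted over 16210 genes. Between early and intermediate, 10 of 43 rose (23.3%, against 28.7% of all genes tested) and 14 fell (32.6%, against 25.7%). Between intermediate and full, 9 rose (20.9%, against 20.8%) and 17 fell (39.5%, against 19.8%). Between full and BEC, 6 rose (14.0%, against 10.7%) and 13 fell (30.2%, against 10.6%). With total counts these counts were 22 up and 13 down, 15 and 13, and 6 and 13, while 59.4%, 32.3% and 10.7% of all genes tested were called higher and 1623, 1976 and 1717 of the 16210 lower (12.2% and 10.6% at the later steps), so the balance of the first 2 steps moved with the scaling.

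Receptors for osteopontin were described first. Of 11 tested, 3 rose between early and intermediate, 5 rose and 1 fell between intermediate and full, and 3 rose between full and BEC. The share that rose was 27.3%, 45.5% and 27.3%, beside 28.7%, 20.8% and 10.7% of all genes tested. With total counts 6 rose at the first step, where that scaling called 59.4% of all genes tested higher. Their median log2 change was -0.03, 0.26 and 0.57 at these steps, beside 0.06, 0.01 and 0.00 over all genes. Itgav, the integrin alpha subunit that pairs with several beta subunits to bind RGD motifs, rose at each step. It stood at 93.1 ± 18.6, 242 ± 30.9, 443 ± 14.2 and 654 ± 65.1 CPM in early, intermediate, full and BEC (SD, n = 3), with log2 changes of 1.38, 0.87 and 0.56 and edgeR adjusted p of 2.19e-06, 0.000205 and 0.009. Cd44 stood at 43.7, 256, 530 and 880 CPM and rose by 2.55 and 1.05 on the log2 scale at the first 2 steps (edgeR adjusted p 8.32e-06 and 0.00895). Its change to BEC was 0.73 (edgeR adjusted p 0.0863), which passed with the replicate number as a block (0.00306) and by DESeq2 (0.0427).

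The epithelial integrin subunit Itgb6 came later than Spp1 itself. It stood at 0.0533 and 0.318 CPM in early and intermediate, near the floor of 3 counts, then at 12.4 ± 4.30 in full and 114 ± 15.7 in BEC (SD, n = 3). The log2 change from full to BEC was 3.20 (edgeR adjusted p 6.12e-07). Itga9, a subunit that binds osteopontin after cleavage, stood at 2.98 and 2.83 CPM in early and intermediate and rose to 25.7 in full (log2 change 3.16, edgeR adjusted p 8.59e-06) and 54.7 in BEC (1.09, edgeR adjusted p 0.014). Leaving out full replicate 1 (0.90, edgeR adjusted p 0.0689) or BEC replicate 2 (0.98, 0.0674) ended the last call. Itga5 rose by 0.61 at the first step (edgeR adjusted p 0.00375). Itgb1 rose by 0.26 between intermediate and full, a call that ended when any 1 of the 6 libraries other than intermediate replicate 1 was left out (edgeR adjusted p 0.0567 to 0.122). That call also ended with no filter on low counts (edgeR adjusted p 0.113). Itgb5 fell by 0.38 at that step (edgeR adjusted p 0.00694, and 0.145 with total counts).

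Of 5 processing genes tested, 2 fell at the first step, while 1 rose and 3 fell at each later one, with median log2 changes of 0.11, -0.44 and -0.52. Of all genes tested, 25.7%, 19.8% and 10.6% fell at these steps. With total counts 2 rose and 2 fell at each of the first 2 steps, with a median of 0.77 at the first, beside 0.72 over all genes. At these steps that scaling called 59.4% and 32.3% of all genes tested higher, and 1623 and 1976 of the 16210 lower. F2, the prothrombin gene whose product cleaves osteopontin, fell at each step, from 2548 CPM through 611 and 69.3 to 26.8. Acp5, a phosphatase that removes phosphate from osteopontin, also fell at each step, from 171 through 44.6 and 16.2 to 6.70 CPM. Mmp7, a metalloproteinase that cleaves osteopontin, was at 0 counts in all early libraries and at 0 to 6 counts in intermediate ones. It then stood at 62.2 ± 25.9 CPM in full and 652 ± 106 in BEC (SD, n = 3), a log2 change of 3.39 (edgeR adjusted p 8.22e-06) at the last step. Fam20c, the kinase that phosphorylates secreted proteins, fell by 0.52 between full and BEC (edgeR adjusted p 0.00579). Its change of -0.44 between intermediate and full (0.00931) was not called with total counts (-0.23, edgeR adjusted p 0.137). Tgm2, a transglutaminase that crosslinks osteopontin, had log2 changes of 0.17, 0.18 and 0.11, none of them called, while with total counts the first 2 were called (0.83 and 0.38, edgeR adjusted p 0.000113 and 0.037). The 4 other genes of osteopontin's own SIBLING family did not pass the filter.

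Of 4 clusterin receptors tested, Lrp1 and Vldlr carried the edgeR calls at the 3 steps. DESeq2 also called Lrp8 and Plxna4, both under 6 CPM, lower at the first step. Lrp1, a large endocytic receptor, fell at each step, from 1189.9 CPM through 487 and 305 to 102. Vldlr, a receptor of the low density lipoprotein receptor family, rose with the members at the first step, from 8.53 ± 2.41 to 85.3 ± 4.49 CPM (SD, n = 3; log2 change 3.32, edgeR adjusted p 1.93e-09). It was at 99.4 CPM in full (0.22, edgeR adjusted p 0.197, and 0.42 with 0.0203 with total counts) and fell by 1.03 to 48.6 CPM in BEC (edgeR adjusted p 6.62e-05).

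Of 5 genes tested of clusterin cleavage and other secreted chaperones, 1 rose and 4 fell at the first step, 4 fell at the second and 3 at the last, where 25.7%, 19.8% and 10.6% of all genes tested fell. Their median log2 changes were -0.95, -0.38 and -0.88. With total counts 2 rose and 3 fell at the first step and 1 rose and 2 fell at the second. That scaling called 59.4% and 32.3% of all genes tested higher at these steps, and 1623 and 1976 of the 16210 lower. Furin, a convertase that cuts precursors in the secretory pathway, fell from 539 to 280 CPM (log2 change -0.95, edgeR adjusted p 1.3e-06) and on to 225 (-0.32, 0.0126). The second fall was not called with total counts (0.319) or with no filter on low counts (0.0545). It was also lost without intermediate replicate 2 (0.0507) or full replicate 3 (0.0621). Pcsk5 fell from 48.9 to 17.0 and 5.32 CPM, and its last step to 2.88 (-0.88, edgeR adjusted p 0.0125) was lost without full replicate 3 (0.0688) or BEC replicate 1 (0.0507). Pcsk7 fell by 0.39 at the first step (edgeR adjusted p 0.00383) and turned to 0.27 with total counts (0.0214). The abundant plasma chaperone Hp, haptoglobin, fell from 12152 CPM through 3044 and 964 to 526. A2m, a plasma protease inhibitor that also binds misfolded proteins, was the gene that rose at the first step, and stood at only 0.160, 4.80, 12.7 and 0.691 CPM in the 4 groups. Its change from intermediate to full was 1.41 (edgeR adjusted p 0.0567). It passed with the replicate block (0.000661), with total counts (0.0307) and without intermediate replicate 1 (0.00218) or full replicate 3 (0.049).

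Of 8 terminal complement genes tested, whose products form or regulate the membrane attack complex that clusterin binds, 7 fell at the first step, 8 at the second and 4 at the last, where 25.7%, 19.8% and 10.6% of all genes tested fell. With total counts 1 rose and 7 fell at the first step, where 1623 of the 16210 genes tested fell, and the later counts were 8 and 4 again. The medians were -2.38, -2.84 and -0.65. C9, the subunit that forms the pore, stood at 353, 88.4, 13.4 and 5.91 CPM. Vtn, or vitronectin, which like clusterin keeps the complex off membranes, fell from 4310.4 through 1878 and 618 to 55.6 CPM. Cd59a, a membrane-bound inhibitor of the complex, had a log2 change of -0.10 at the first step (edgeR adjusted p 0.481), which turned to 0.57 with total counts (0.000321), and then fell by 0.72 and 0.51 (edgeR adjusted p 0.000153 and 0.00428). Hepatocyte marker levels fell over the same steps, and their part in the fall of these liver plasma protein genes was not tested.

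Of 10 regulators tested, 5 rose at the first step, 3 at the second and 2 at the last, where 1 fell, with median log2 changes of 0.83, 0.16 and 0.07. Of all genes tested, 28.7%, 20.8% and 10.7% rose. With total counts all 10 were called higher at the first step and 6 at the second, where that scaling called 59.4% and 32.3% of all genes tested higher. With the replicate number as a block, 8 were called higher at the first step, a count for which no share of all genes is given here. Sox9 rose from 43.4 ± 10.4 to 311 ± 36.6 CPM (SD, n = 3; log2 change 2.85, edgeR adjusted p 2.19e-08) and stood at 378 and 388 in full and BEC. The change from intermediate to full was 0.28 (edgeR adjusted p 0.187, and 0.038 with the replicate block). Ets1 rose from 6.87 to 44.5 CPM (2.69, edgeR adjusted p 1.75e-07) and to 106 in full (1.25, 8.94e-05). Tead1, the DNA-binding partner of Yap1, rose by 1.51 and Rbpj, the Notch effector, by 0.77 at the first step (edgeR adjusted p 4.09e-07 and 8.48e-06). Runx1 and Runx2, which read the RUNX motif, were highest in BEC: Runx1 stood at 0.997, 1.90, 6.70 and 28.1 CPM and Runx2 at 0.142, 0.682, 1.81 and 10.4. Both rose from intermediate to full (edgeR adjusted p 0.00559 and 0.0098) and from full to BEC (0.00175 and 6.55e-05). Runx2, at 0 to 3 counts in early libraries, was also among the 5 regulators that rose at the first step. The Runx2 call in full ended without intermediate replicate 2 (log2 change 1.21, edgeR adjusted p 0.050). The Yap1 fall of 0.29 between full and BEC (edgeR adjusted p 0.0377) was lost whenever any 1 of the 6 libraries was left out (0.0589 to 0.127). At the first step Jun, Fos and the heat shock factor Hsf1 had log2 changes of 0.58, 0.42 and 0.30 (edgeR adjusted p 0.0828, 0.32 and 0.0628). With the replicate block these p-values were 9.59e-05, 0.0194 and 0.00713. Jun also passed without early replicate 3 (0.0314) or intermediate replicate 1 (0.0218), and Hsf1 without early replicate 2 (0.0401) or intermediate replicate 1 (0.029). From full to BEC Jun had a log2 change of -0.33 (edgeR adjusted p 0.472, and 0.012 with the replicate block).

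**Figure D4:**
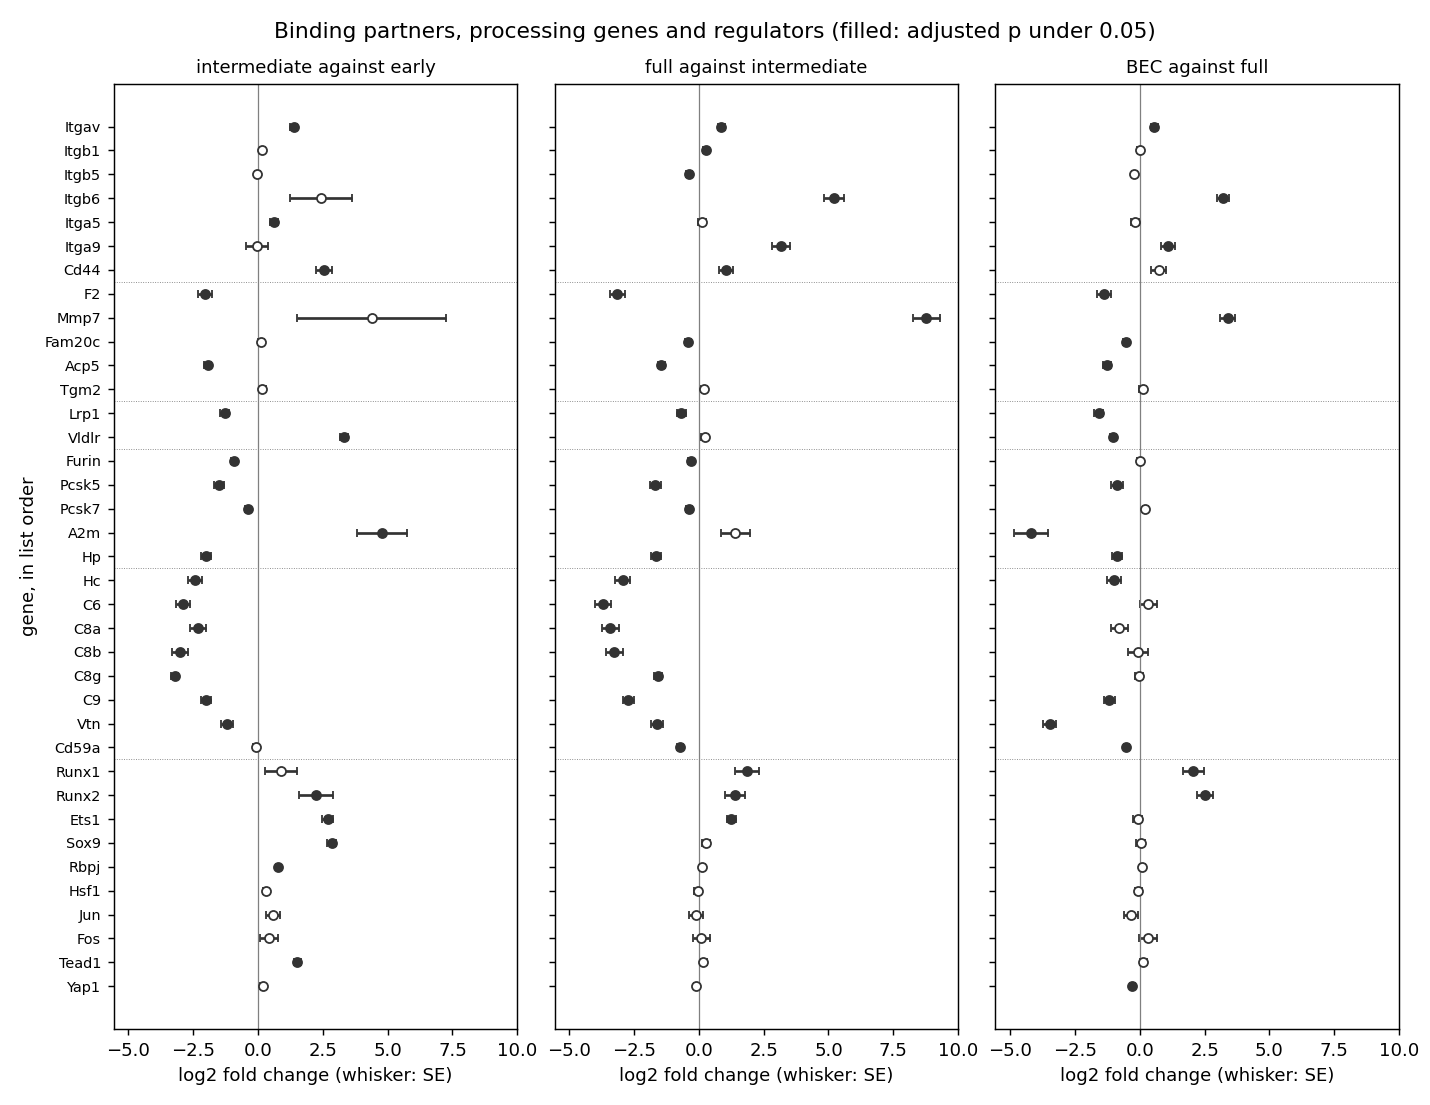
Log2 fold change with its SE (whisker) at the 3 steps, for partner genes with a mean of at least 10 CPM in some group, in list order. Filled points had an edgeR adjusted p under 0.05. Itgb6 and Mmp7 rise at the later steps, after the step at which Spp1 rose, and complement genes lie left of 0 at the first 2 steps. Mmp7 had no counts in early libraries, so its first point depends on the prior count.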

How the data were processed

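The authors deposited raw gene counts of 12 libraries, with genes given by symbol. The submitters' processing notes name STAR 2.7.10b (an aligner), featureCounts 2.0.1 (a read counter), DESeq2 and the build GRCm39. The annotation, strandedness and handling of reads that match several genes are not given in the sources used here. The authors also deposited a signal table, the counts divided by a constant size factor per library (0.623 to 1.33). The counts were used for tests. Members and partner lists were chosen with earlier results of these data known.

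Groups came from the sample titles. Genes were filtered by filterByExpr, scaled by TMM and fitted in edgeR's quasi-likelihood model over all 12 libraries, and calls used a threshold of 0.05 on p-values adjusted by Benjamini and Hochberg's method over 16210 genes. The common biological coefficient of variation was 14.8%. Log2 CPM used a prior count of 2. The floor was 3 counts (0.128 to 0.273 CPM). It covers counting error only. The scripts were tested on simulated data. Lengths and overlaps came from GENCODE M21 (GRCm38), and 97.7% of genes tested had a length. Partner genes with a mean of at least 10 CPM in some group could be named, with the 5 genes nearest to each member in pattern (mean of at least 50 CPM) and up to 3 neighbours in rank on each side.

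Same-numbered libraries deviated together in each of the 3 steps (Pearson r across genes 0.121 to 0.293, 0.137 to 0.322 and 0.170 to 0.257, every pair over 0.1). Differences between same-numbered libraries are therefore given for the members. The main edgeR fit held no term for the replicate number, so its SEs and p-values leave this pairing out. A fit with the replicate number as a block was run only as an alternative. Replicates differed by more than sampling noise (chi-square per degree of freedom 5.34 to 58.2). Alternatives were total-count scaling, median-of-ratios factors, no filter, a mean of at least 50 counts, DESeq2, the 6 libraries of a comparison alone, a replicate block, leaving out each library, other lengths, and other pattern filters. A member's value was taken as unchanged if it moved by less than the pooled SD of log2 CPM. R 4.3.3, edgeR 4.0.16, limma 3.58.1, DESeq2 1.42.0, Python 3.11.15 and matplotlib 3.10.9 were used.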

Additional observations from a re-analysis of the deposited data

How the results depend on the processing

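Groups of 3 libraries were not screened for outliers. Alternatives other than total counts moved each member's log2 change by less than the pooled SD. With total counts only, Spp1 moved to 3.65, 4.05 and 4.16 on the log2 scale for intermediate, full and BEC against early, and Clu to 2.29, 2.47 and 2.36. Clu also moved to 0.18 for full against intermediate and 0.07 for BEC against intermediate, both of opposite sign to the TMM values. At the first step Pcsk7 turned from -0.39 to 0.27 and Cd59a from -0.10 to 0.57. Leaving out 1 library gave 2.80 to 3.38 for Spp1 and 1.51 to 1.72 for Clu between early and intermediate. The same gave 0.06 to 0.32 and -0.13 to 0.10 between intermediate and full, and -0.05 to 0.24 and -0.22 to -0.00 between full and BEC, so the Spp1 direction at the last step and the Clu direction from intermediate to full turned with 1 library.

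The median rank of Spp1 was 147 in early without length and 1 in BEC with exon-union lengths. Clu had median ranks of 30 (exon union) and 18 (no length) in early, 2 in intermediate and 3 in BEC with exon-union lengths. With a mean of at least 10 CPM, 3 of the 5 genes nearest Spp1 and 2 of those nearest Clu were shared with the genes named, since more genes were compared.

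With the replicate block, the partner genes gave 13 rises and 14 falls, 11 and 17, and 7 and 15 at the 3 steps, and regulators gave 8 rises at the first. The share of all genes called with the block is not given here. Nothing is therefore read from the change in these counts. Beside the calls of A2m, Cd44, Sox9, Jun, Fos and Hsf1 given above, the block changed no other call printed with its value. With no filter on low counts, the Itgb1 and Furin calls from intermediate to full and the Yap1 call from full to BEC ended. Jun, Fos and Hsf1 then passed at the first step, A2m from intermediate to full and Cd44 from full to BEC.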
